A study of Mus musculus with 26 samples.

Results

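The 10 genes described here are YAP, TAZ, the TEAD factors and 4 of their known target genes: Yap1, Wwtr1 (the gene of TAZ), Tead1, Tead2, Tead3, Tead4, Ankrd1, Amotl2, Ajuba and Lats2. They were taken by symbol, ignoring case, from the 55391 genes of the count table, and all 10 passed the filter on low counts. The mRNA of 3 murine EML4-ALK lung cancer cell lines, EA1, EA2 and EA3, was sequenced after culture with 100 nM alectinib, an inhibitor of the ALK kinase, or with 0.1% DMSO alone, for 1, 2, 3 or 5 days. All groups carried the Eml4-Alk fusion, which Cas9 delivered by adenovirus had made in the lungs of mice. The cells grew in RPMI-1640 with serum and antibiotics. Each line is a single established line, so differences between EA1, EA2 and EA3 are differences between 3 cultures. There was 1 library for each line, treatment and day, and the 4 days served as the replicates, so the p-values measure the spread between days, pooled over the 3 lines. Library totals ran from 5780062 to 11732401 counts. Another 2 libraries, labelled EA3 day 7, correlated better with the EA2 libraries than with those of EA3 and were used only where stated.

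YAP and TAZ are transcriptional coactivators that have no DNA binding domain and act through the TEAD factors, which hold them on DNA. The Hippo kinases LATS1 and LATS2 phosphorylate YAP and TAZ, which are then kept out of the nucleus or degraded, and the genes they drive include inhibitors of the pathway itself. In the lung, YAP and TAZ are known for their part in the growth and repair of the alveolar epithelium. The counts measure mRNA only, so neither the phosphorylation nor the location of the YAP and TAZ proteins was measured.

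In every line the 4 target genes rose with alectinib, while Yap1, Wwtr1 and the TEAD genes each passed the test in at most 2 of the 3 lines, and for none of these did the difference between lines pass. Averaged over the days, Amotl2 was 2.79-fold higher in EA1, 8.84-fold in EA2 and 4.51-fold in EA3, and Ankrd1 was 2.23-fold, 2.28-fold and 3.00-fold higher. Tead4 was the one gene of the 10 that fell, to 0.456 of its DMSO level in EA1 and 0.489 in EA3. With an adjusted p under 0.05 in edgeR's quasi-likelihood test as the call, EA1 had 5 of the 10 genes higher and 1 lower with alectinib, EA2 had 5 higher and 0 lower, and EA3 had 5 higher and 1 lower. Of all 14264 genes tested, EA1 had 18.0% called higher and 15.8% lower, EA2 13.0% and 11.3%, and EA3 16.5% and 15.8%. Before adjustment 8, 6 and 8 of the 10 had a p under 0.05, and DESeq2 called 8, 5 and 7. The EA1 count fell to 3 without day 1 and the EA2 count to 3 without day 2 or day 5. With the libraries labelled day 7 added the EA3 count was 6. Since these correlated better with EA2, that count is no check of EA3. The genes called higher in all 3 lines were Ankrd1, Amotl2, Ajuba and Lats2, 4 of the 10, against 5.48% of all genes tested. The 10 genes and the gene lists below were chosen with earlier results of these data known. Their shares set beside those of all genes are therefore a description and not a test.

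**Figure D1:**
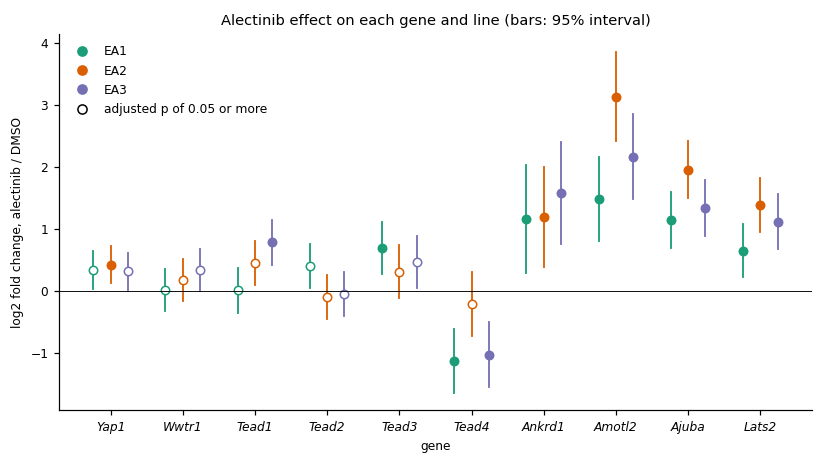
Log2 fold change of alectinib against DMSO (y axis) for each gene (x axis) in EA1, EA2 and EA3, with the 95% interval of the edgeR fit as a bar; filled points have an adjusted p under 0.05. The 4 target genes on the right lie between 0.65 and 3.14 in all lines, Tead4 lies below 0 in each line (-1.13, -0.21 and -1.03 in that order), and the other points lie between -0.10 and 0.79.

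The promoters of the 4 target genes are shown because these genes rose together and because TEAD factors bind a short motif, GGAATG, or CATTCC when read on the other strand. The windows are those of RefSeq on GRCm38.p6, 250 bases before to 50 after the start of a transcript, written 5′ to 3′ along the gene's own strand, and the capitals mark each match to the motif on either strand. The Ankrd1 window is chr19:36119795-36120094, the Amotl2 window chr9:102717554-102717853, the Ajuba window chr14:54577612-54577911 and the Lats2 window chr14:57746074-57746373. The Amotl2 window lies on the plus strand and the other windows on the minus strand.
Ankrd1: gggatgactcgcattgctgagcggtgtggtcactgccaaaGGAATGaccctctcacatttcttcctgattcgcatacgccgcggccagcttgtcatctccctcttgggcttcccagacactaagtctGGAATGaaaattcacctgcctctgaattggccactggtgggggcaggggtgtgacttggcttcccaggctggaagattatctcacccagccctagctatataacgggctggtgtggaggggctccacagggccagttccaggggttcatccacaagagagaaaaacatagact
Amotl2: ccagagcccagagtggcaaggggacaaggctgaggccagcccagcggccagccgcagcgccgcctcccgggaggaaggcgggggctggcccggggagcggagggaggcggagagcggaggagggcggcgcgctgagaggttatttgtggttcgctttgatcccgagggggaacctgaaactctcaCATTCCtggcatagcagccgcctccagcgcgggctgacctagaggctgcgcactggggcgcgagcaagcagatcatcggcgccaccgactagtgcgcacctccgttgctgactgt
Ajuba: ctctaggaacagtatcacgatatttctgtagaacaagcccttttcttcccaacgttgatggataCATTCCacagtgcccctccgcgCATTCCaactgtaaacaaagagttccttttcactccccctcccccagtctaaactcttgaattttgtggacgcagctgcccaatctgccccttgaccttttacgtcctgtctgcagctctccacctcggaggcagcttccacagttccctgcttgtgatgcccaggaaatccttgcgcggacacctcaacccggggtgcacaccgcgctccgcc
Lats2: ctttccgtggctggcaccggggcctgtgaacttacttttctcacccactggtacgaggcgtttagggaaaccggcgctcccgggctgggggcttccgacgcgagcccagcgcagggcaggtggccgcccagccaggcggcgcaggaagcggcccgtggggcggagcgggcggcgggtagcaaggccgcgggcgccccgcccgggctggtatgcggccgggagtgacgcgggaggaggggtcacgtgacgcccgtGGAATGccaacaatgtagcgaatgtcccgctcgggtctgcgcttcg
The motif began 210 and 123 bases before the Ankrd1 start site, 65 before that of Amotl2, and 186 and 164 before that of Ajuba. In Lats2 it lay 4 bases past the start, and a second Lats2 window held none. Of the other members, the windows of Yap1 and Wwtr1 held the motif, 2 of the 3 Tead3 windows held it and that of Tead2 did not, while Tead1 and Tead4 were not in the table of windows. Among all 32851 windows listed, 14.7% held the motif on at least 1 strand, and by gene 16.6% held it in at least 1 window, against 7 of the 8 members with a window. A match to 6 letters describes the sequence and does not show that a factor was bound there.

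Ankrd1 encodes a cardiac ankyrin repeat protein and is among the most used readouts of YAP and TAZ (chr19:36111961-36120099, minus strand, mm10 with GENCODE M21 for this and all genes below). Its level is given in CPM, counts as a share of the library's total scaled to 1000000 after TMM normalization, for days 1, 2, 3 and 5 in that order. In EA1 it was 46.1, 69.8, 191 and 88.1 CPM with DMSO and 324, 186, 120.0 and 181 with alectinib. In EA2 it was 215, 239, 215 and 207 with DMSO and 359, 581, 532 and 561 with alectinib. In EA3 it was 135, 191, 178 and 156 with DMSO and 584, 609, 560.4 and 285 with alectinib. In EA2 and EA3 every alectinib library stood above every DMSO library, but in EA1 the groups overlapped, since on day 3 Ankrd1 was lower with alectinib than with DMSO. The log2 fold change was 1.16 ± 0.40 (SE, n = 4 days; edgeR adjusted p = 0.0408) in EA1, 1.19 ± 0.38 (adjusted p = 0.0334) in EA2 and 1.58 ± 0.38 (adjusted p = 0.00683) in EA3. The EA1 call was the least secure: the log2 fold change was 0.64 (edgeR adjusted p = 0.17) without day 1 and 1.76 without the EA1 libraries of day 3, the latter a choice made after seeing the data. The call was also lost without day 2 or day 5 in EA1 and EA2 and without day 2, or without days 2 and 5, in EA3, with adjusted p between 0.0511 and 0.173, and in EA1 with that line fitted alone (adjusted p = 0.116).

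Amotl2, an angiomotin family protein that binds YAP and TAZ and holds them in the cytoplasm, had the greatest fold change of the 10 genes in each line (chr9:102716672-102733418, plus strand). The EA1 values were 76.6, 82.8, 103 and 65.8 CPM with DMSO and 366, 206, 148 and 231 with alectinib. The EA2 values were 118, 109.7, 68.4 and 69.1 with DMSO and 518, 653, 1147 and 964 with alectinib. The EA3 values were 107, 82.0, 89.1 and 78.9 with DMSO and 470.2, 450.0, 441 and 275 with alectinib. The groups did not overlap in any line, and the highest value of all, that of EA2 on day 3, came with the lowest DMSO value of that line. On the log2 scale the change was 1.48 ± 0.32 (edgeR adjusted p = 0.00323) in EA1, 3.14 ± 0.34 (adjusted p = 2.87e-05) in EA2 and 2.17 ± 0.32 (adjusted p = 0.000268) in EA3. Each of these calls held under every alternative run, with adjusted p of at most 0.023.

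Ajuba encodes a LIM domain protein that binds LATS kinases and restrains them (chr14:54567472-54577558, minus strand). EA1 held 82.6, 83.7, 92.1 and 54.8 CPM with DMSO and 255, 164, 128 and 158 with alectinib. EA2 held 69.2, 65.1, 31.8 and 35.8 with DMSO and 191, 198, 156 and 201 with alectinib. EA3 held 98.0, 62.1, 85.2 and 48.2 with DMSO and 242, 198, 196 and 109 with alectinib. Again the groups did not overlap in any line, and in EA1 the gap was smallest on day 3, with a log2 ratio of 0.47 against 0.97 to 1.63 on the other days. The fold change on the log2 scale was 1.15 ± 0.21 (edgeR adjusted p = 0.00113) in EA1, 1.96 ± 0.21 (adjusted p = 3.05e-05) in EA2 and 1.34 ± 0.21 (adjusted p = 0.00039) in EA3. These calls too held under every alternative run, with adjusted p of at most 0.0211.

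Lats2 encodes a kinase that inactivates YAP and TAZ and is itself induced by them (chr14:57689662-57758388, minus strand). The EA1 values were 19.4, 22.4, 26.5 and 21.1 CPM with DMSO and 43.8, 33.2, 30.4 and 33.2 with alectinib. The EA2 values were 16.2, 16.5, 13.7 and 12.9 with DMSO and 28.5, 36.0, 47.9 and 45.5 with alectinib. The EA3 values were 15.7, 16.7, 15.5 and 12.5 with DMSO and 34.8, 36.4, 42.2 and 21.0 with alectinib. The alectinib libraries stood above the DMSO libraries in all lines, by the least in EA1. On the log2 scale the change was 0.65 ± 0.20 (edgeR adjusted p = 0.0236) in EA1, 1.39 ± 0.20 (adjusted p = 0.000269) in EA2 and 1.12 ± 0.20 (adjusted p = 0.00111) in EA3. The EA1 call was lost without day 1, 2 or 5, with adjusted p of 0.0856, 0.0867 and 0.0629, and the other 2 lines kept theirs under every alternative. Its absolute level is uncertain, since 42.4% of its exon bases are shared on the same strand with Gm49361, a gene model that had a count of 0 in every library.

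**Figure D2:**
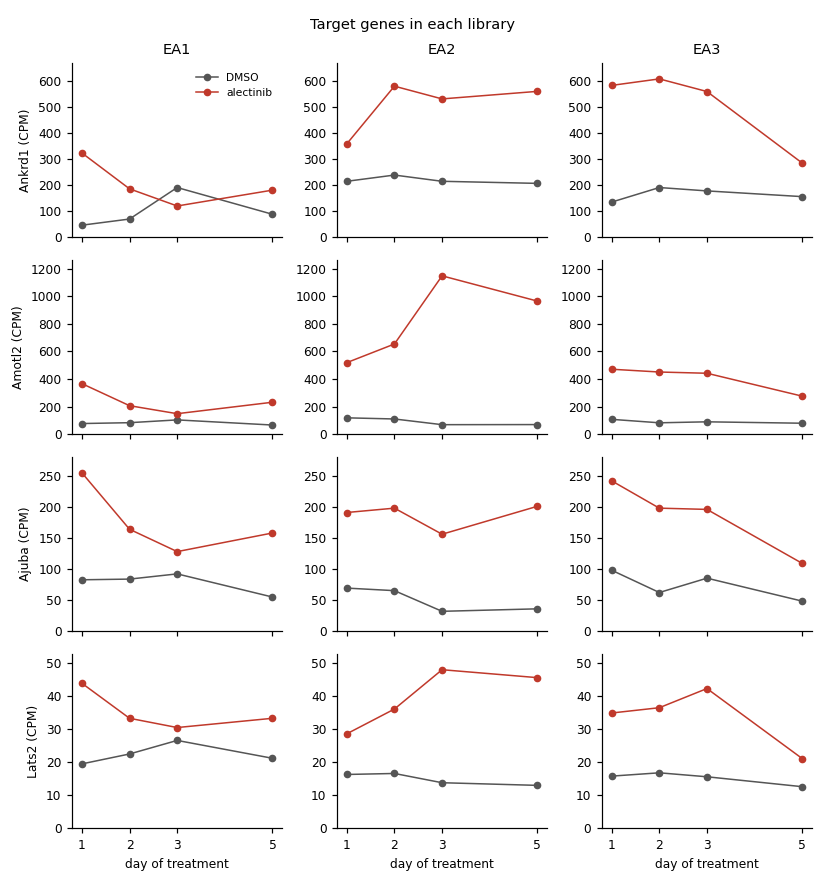
CPM (y axis, from 0) of Ankrd1, Amotl2, Ajuba and Lats2 (rows of panels) against day of treatment (x axis) in EA1, EA2 and EA3 (columns); each point is 1 library, grey for DMSO and red for alectinib. Red lies above grey at every point but one, Ankrd1 in EA1 on day 3 (120.0 against 191 CPM), and the EA3 alectinib values of all 4 genes are at their lowest on day 5.

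Counting libraries that do not overlap, alectinib stood above DMSO for 4 of the 10 genes in EA1 (Tead3, Amotl2, Ajuba and Lats2), 5 in EA2 (Yap1 and the 4 targets) and 4 in EA3 (the 4 targets). Of all genes tested this held for 17.3% in EA1, 14.3% in EA2 and 12.2% in EA3. Alectinib stood wholly below DMSO for 1 gene in EA1, Tead4, and for none in EA2 or EA3, against 13.8%, 12.6% and 11.4% of all genes.

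Yap1 itself was only slightly higher with alectinib (chr9:7931999-8004596, minus strand). Levels in EA1 were 145, 118, 130.0 and 94.6 CPM with DMSO and 166, 159, 144 and 140.3 with alectinib. Levels in EA2 were 169.9, 176, 161 and 158 with DMSO and 181, 225, 229 and 262 with alectinib. Levels in EA3 were 152, 109, 133 and 122 with DMSO and 150.1, 167, 180.1 and 144 with alectinib. The groups overlapped in EA1 and EA3 and not in EA2. The log2 fold change was 0.34 ± 0.14 (edgeR adjusted p = 0.0794) in EA1, 0.42 ± 0.14 (adjusted p = 0.0417) in EA2 and 0.32 ± 0.14 (adjusted p = 0.0985) in EA3, so only EA2 was called. That call was lost with library size alone as the scaling (adjusted p = 0.0636), with no filter on low counts and without day 2, 3 or 5, while EA1 and EA3 were called with DESeq2, with library size alone and with at least 10 counts in every library, and EA3 also without day 1.

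Wwtr1, the gene of TAZ, had an adjusted p above 0.05 in each line (chr3:57455649-57575910, minus strand). It ranged from 157 to 316 CPM with DMSO and from 199 to 247 with alectinib in EA1, from 189 to 274 and 214 to 315 in EA2, and from 182 to 301 and 251 to 332 in EA3. The ranges overlapped in every line. The log2 fold change was 0.02 (95% interval -0.32 to 0.36) in EA1, 0.17 (-0.17 to 0.51) in EA2 and 0.34 (0.00 to 0.68) in EA3, with edgeR adjusted p of 0.933, 0.476 and 0.119. With library size alone the EA3 value was called (adjusted p = 0.0161). In EA1 its DMSO value of day 3, 316 CPM, was the highest of the line, on the same day on which Ankrd1 was highest with DMSO.

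**Figure D3:**
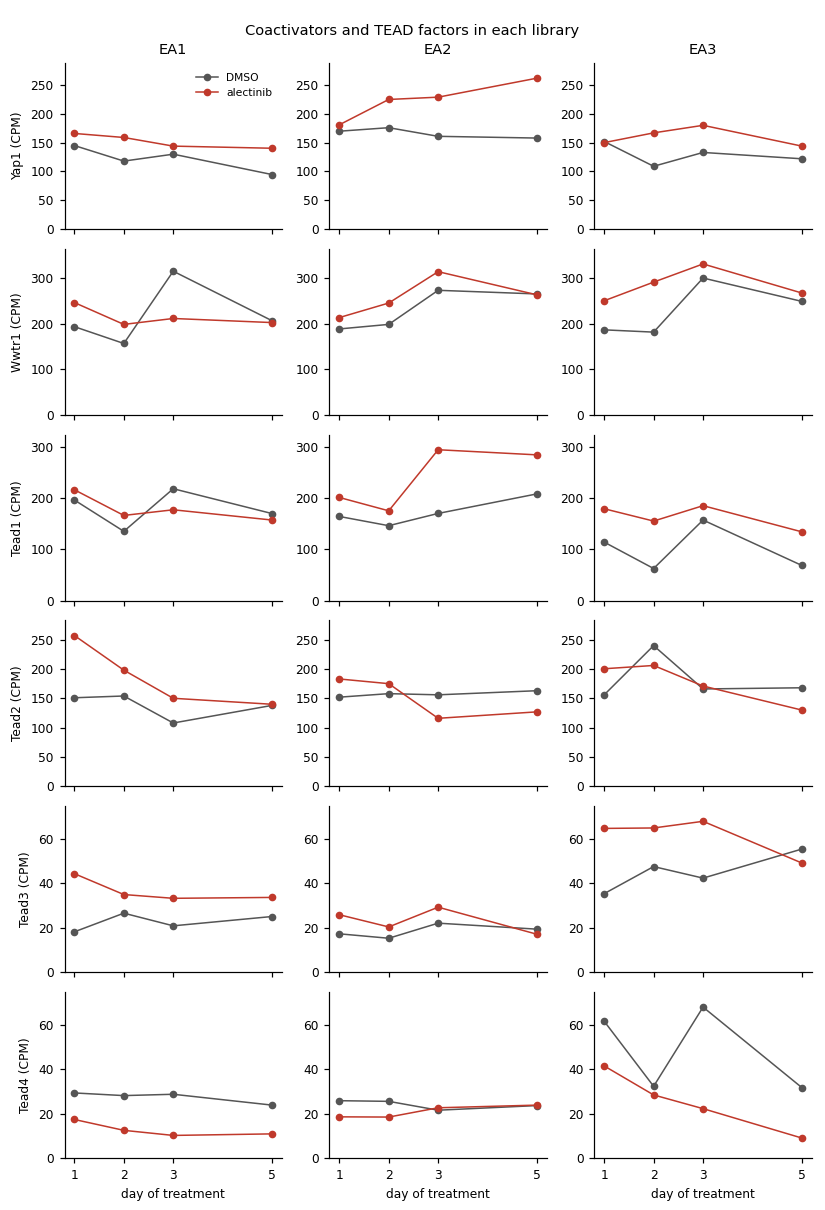
CPM (y axis, from 0) of Yap1, Wwtr1 and the 4 TEAD genes (rows of panels) against day of treatment (x axis) in EA1, EA2 and EA3 (columns); each point is 1 library, grey for DMSO and red for alectinib. The red and grey values overlap in all but 3 of the panels (Yap1 in EA2, Tead3 and Tead4 in EA1), Tead4 in EA1 is lower with alectinib on all 4 days, and the EA3 DMSO values of Tead1 and Tead4 are high on days 1 and 3 and low on days 2 and 5.

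The TEAD factors are closely related DNA binding proteins. Tead1 was called higher in EA3 (chr7:112679318-112906807, plus strand). In EA3 it was 114, 62.6, 157 and 68.5 CPM with DMSO and 179, 155, 185 and 134 with alectinib, a log2 fold change of 0.79 ± 0.17 (edgeR adjusted p = 0.0034). It was higher with alectinib on all 4 days, but the groups overlapped, and the log2 ratio was 1.31 and 0.96 on days 2 and 5, when DMSO was low, against 0.64 and 0.24 on days 1 and 3. Without the EA3 libraries of days 2 and 5, a choice made after seeing the data, it was 0.46 (adjusted p = 0.148). In EA2 Tead1 ranged from 146 to 208 CPM with DMSO and from 175 to 294 with alectinib (log2 fold change 0.45, adjusted p = 0.0675), and in EA1 from 135 to 218 and 157 to 216 (0.01, adjusted p = 0.978). The EA2 value was called with at least 10 counts in every library (edgeR adjusted p = 0.0472) and with each line fitted alone (adjusted p = 0.0375), and the difference between the lines did not pass (adjusted p = 0.12).

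Tead2 had an adjusted p above 0.05 in each line (chr7:45215753-45233644, plus strand). It ranged from 108 to 154 CPM with DMSO and from 139.9 to 257 with alectinib in EA1, from 152 to 163 and 116 to 183 in EA2, and from 156 to 239.8 and 130.0 to 206 in EA3. The log2 fold change was 0.40 (95% interval 0.05 to 0.76; edgeR adjusted p = 0.0745) in EA1, -0.10 (-0.45 to 0.26) in EA2 and -0.05 (-0.40 to 0.31) in EA3. With alectinib its value was lower on days 3 and 5 than on days 1 and 2 in each line. The EA1 value was called with DESeq2 (adjusted p = 0.048), and in edgeR with library size alone (adjusted p = 0.0229), with at least 10 counts in every library (adjusted p = 0.0462) and without day 5 (adjusted p = 0.0477).

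Tead3 was called higher in EA1 (chr17:28331671-28350817, minus strand). There it was 18.2, 26.6, 20.9 and 25.1 CPM with DMSO and 44.4, 35.0, 33.3 and 33.7 with alectinib, with no overlap and a log2 fold change of 0.69 ± 0.20 (edgeR adjusted p = 0.0161). In EA3 it ranged from 35.4 to 55.5 CPM with DMSO and from 49.2 to 68.0 with alectinib (0.46 ± 0.19, adjusted p = 0.0863), and in EA2 from 15.3 to 22.1 and 17.1 to 29.3 (0.31 ± 0.20, adjusted p = 0.295). On day 5 alone it was lower with alectinib in EA2 and EA3. The EA1 call was lost without day 1 or day 3, with adjusted p of 0.0816 and 0.0829, and the EA3 value was called with library size alone and without day 5.

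Tead4 went the other way (chr6:128224288-128300823, minus strand). In EA1 it was 29.4, 28.2, 28.8 and 23.9 CPM with DMSO and 17.4, 12.5, 10.2 and 10.9 with alectinib. In EA3 it was 61.8, 32.4, 68.2 and 31.8 with DMSO and 41.6, 28.5, 22.3 and 9.01 with alectinib. In EA2 it was 25.9, 25.6, 21.6 and 23.7 with DMSO and 18.6, 18.5, 22.7 and 23.9 with alectinib. Tead4 was lower on all 4 days in EA1 and EA3, without overlap in EA1, and on 2 of 4 days in EA2. It fell by 1.13 ± 0.24 on the log2 scale in EA1 (edgeR adjusted p = 0.00328) and by 1.03 ± 0.24 in EA3 (adjusted p = 0.00585), and the EA2 value was -0.21 ± 0.24 (adjusted p = 0.562). The EA1 call held under every alternative run, and the EA3 call was lost without day 3 or day 5 (adjusted p = 0.0503 and 0.0654). The effect differed between lines with an adjusted p of 0.158 in edgeR, which does not pass the threshold.

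Levels can be compared between genes only per length, so CPM was divided by each gene's merged exon length in kilobases. With DMSO, Ankrd1, Wwtr1 and Tead2 held the first 3 places in each line by mean level. Ankrd1 stood at 34.2 ± 22.1 CPM per kilobase (SD, n = 4 days) in EA1, 75.9 ± 4.82 in EA2 and 57.1 ± 8.61 in EA3. Wwtr1 stood at 45.7 ± 14.3, 48.5 ± 9.30 and 48.1 ± 11.8, and Tead2 at 28.8 ± 4.37, 32.9 ± 0.991 and 38.1 ± 8.08. The ranges of Ankrd1 and Wwtr1 overlapped in EA1 and EA3 and not in EA2, where Ankrd1 was first on each day. Yap1 stood at 13.2 ± 2.31, 17.9 ± 0.894 and 13.9 ± 1.95, below Wwtr1 on every day. Its range overlapped that of Amotl2 (means of 13.1, 14.5 and 14.2) in each line and that of Tead1 in EA1 (mean of 13.2), while in EA2 Tead1 lay below it, at 10.8 to 15.3 against 17.0 to 19.0. Lats2 was last in each line with DMSO, at 3.21, 2.13 and 2.17 CPM per kilobase, though in EA1 and EA2 its range overlapped that of Tead3. This rank is uncertain, because the length used for Lats2 includes the exon bases shared with Gm49361. With alectinib the mean of Ankrd1 was first in each line, at 70.2 ± 29.8, 176 ± 35.2 and 177 ± 52.4, and Amotl2 moved from place 5 to place 2 in EA2 and EA3.

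Among the TEAD genes, Tead2 made up most of the summed CPM per kilobase. In the order EA1, EA2 and EA3 its mean share was 54.1%, 59.8% and 58.0% with DMSO and 63.1%, 53.6% and 56.7% with alectinib. The share of Tead4 with DMSO was 14.4% ± 1.31, 12.2% ± 1.32 and 20.5% ± 7.46 (SD, n = 4 days), and with alectinib 5.81% ± 0.350, 10.0% ± 1.66 and 10.2% ± 4.06. Only in EA1 did the Tead4 shares of the treatments lie wholly apart, at 12.8% to 16.0% and 5.45% to 6.22%. Tead1 took 11.2% in EA3 with DMSO against 25.0% in EA1 and 23.0% in EA2.

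**Figure D4:**
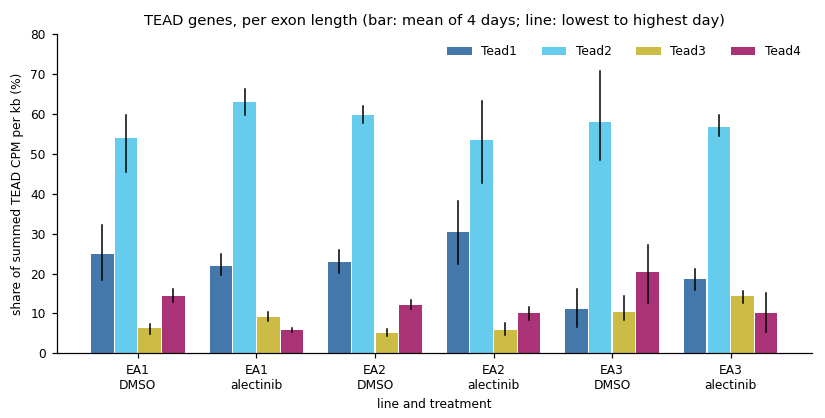
Share of each TEAD gene in the summed TEAD CPM per kilobase of exon (y axis, percent, from 0) for each line and treatment (x axis); bars are the mean of 4 days and black lines run from the lowest to the highest day. Tead2 is the tallest bar in all 6 groups, at 53.6% to 63.1%, and the Tead4 bar is shorter with alectinib in each line.

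Before any alectinib the lines already differed in some of these genes. With DMSO, 2 of the 10 genes differed between EA2 and EA1, 3 between EA3 and EA1 and 2 between EA3 and EA2, against 29.3%, 22.2% and 25.6% of all 12886 genes tested in the DMSO libraries, shares of members near those of all genes. These comparisons share DMSO libraries with each other. Ankrd1 was higher in EA2 than in EA1 by 1.16 ± 0.34 on the log2 scale (edgeR adjusted p = 0.0196), and Lats2 was lower (-0.59 ± 0.19, adjusted p = 0.0346). In EA3, Tead3 was higher than in EA1 by 1.00 ± 0.21 (edgeR adjusted p = 0.00333) and than in EA2 by 1.29 ± 0.21 (adjusted p = 0.000441). Tead4 was higher in EA3 as well, by 0.82 ± 0.25 over EA1 (edgeR adjusted p = 0.0285) and 1.01 ± 0.25 over EA2 (adjusted p = 0.00888). Tead1 was lower in EA3 than in EA1 (-0.83 ± 0.28, edgeR adjusted p = 0.0458). The DMSO levels of Wwtr1, Tead2 and Amotl2 passed the test between no pair of lines under any setting run. Those of Yap1 and Ajuba passed between EA2 and EA1 with the day as a replicate block (edgeR adjusted p = 0.0244 and 0.0339), and Yap1 also with DESeq2, with library size alone and with at least 10 counts in every library. With that block the counts were 4, 5 and 3 of the 10, beside 40.8%, 32.6% and 36.5% of all genes, with Ankrd1 and Lats2 added for EA3 against EA1 and Tead1 for EA3 against EA2. Leaving out 1 day took the count down to 0 for EA2 against EA1 (without day 1, 2 or 5), to 1 for EA3 against EA1 (the same days) and to 1 for EA3 against EA2 (day 1).

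Whether the alectinib effect itself differed between the lines was tested with 2 degrees of freedom in the same fit. None of the 10 genes passed (edgeR, smallest adjusted p = 0.0756, for Amotl2), while 7.05% of all genes did. At an unadjusted p under 0.05 there were 4, Tead1, Tead4, Amotl2 and Ajuba, and DESeq2's likelihood ratio test called 1, Amotl2 (adjusted p = 0.0178). Amotl2 also passed in edgeR with no filter on low counts, with no replicate block (adjusted p = 0.032) and without day 1 (adjusted p = 0.0281), and its adjusted p over the alternatives ran from 4.05e-07 to 0.346. Taken pair by pair, the Amotl2 effect was larger in EA2 than in EA1 by 1.67 on the log2 scale (95% interval 0.71 to 2.62; edgeR adjusted p = 0.0409), a contrast called for 6.48% of all genes, and no other member passed in any pair. For Ankrd1 the difference of EA2 from EA1 was 0.04, with an interval of -1.14 to 1.21, so effects that differ by a fold of 2 in either direction lie within the error.

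With 1 library for each day and treatment, a change of the effect with time could hardly be tested. A slope of the alectinib effect on log2 day was called for 0 of the 10 genes in each line (edgeR), against 0.0210% of all genes in EA1, 0.00% in EA2 and 0.0631% in EA3, so these counts of 0 do not show that the effect held steady. At an unadjusted p under 0.05 the slope was -0.99 per doubling of days for Ankrd1 in EA1, 0.84 for Amotl2 and 0.48 for Lats2 in EA2, and -0.63 for Tead4 in EA3, with edgeR adjusted p of 0.351, 0.682, 0.79 and 0.27. The DMSO level alone likewise had 0 members called over the days (edgeR), against 1.83% of all genes in EA1, 0.00% in EA2 and 6.10% in EA3. Unadjusted, Ankrd1 in EA1 (slope 0.66) and Amotl2 and Ajuba in EA2 (-0.38 and -0.49) had a p under 0.05, and none did in EA3. DESeq2 was not run for slopes.

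The daily log2 ratios of Amotl2, Ajuba and Lats2 ran closely together over the 12 pairs of libraries, 1 for each line and day. Pearson's r was 0.95 for Amotl2 with Ajuba, 0.95 for Amotl2 with Lats2 and 0.86 for Ajuba with Lats2, whereas Ankrd1 reached 0.44, 0.45 and 0.57 with these genes. Ankrd1 had its highest r within the set with Wwtr1, 0.78. Tead4, though lower with alectinib in EA1 and EA3, had r of 0.76 with Amotl2 and 0.80 with Ajuba, and Tead2 had -0.60 and -0.55. The search covered 9928 genes with an average log2 CPM of at least 3, with the members counted in but left out of the ranking. The ratios most like those of Amotl2 were of Rhoa (r = 0.918), Lrp2 (0.917) and Anxa3 (0.900). Those most like Ajuba were of Rhoa (0.914), Kctd9 (0.902) and Mrps18b (0.902). For Lats2 they were Anxa3 (0.929), Ppp2r5a (0.907) and Gyg (0.898), and for Ankrd1 Ets2 (0.883), Src (0.862) and Mospd1 (0.861). The pairs of a day share their libraries across all genes, including depth and scaling, and only 3 lines stand behind the 12 points, so these values are a description.

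Other genes of the pathway were read from a list of 32 Hippo regulators, 30 of which were tested. EA1 had 6 called higher and 2 lower, EA2 had 6 and 4, and EA3 had 11 and 1. Of all genes tested, 18.0%, 13.0% and 16.5% were called higher in these lines and 15.8%, 11.3% and 15.8% lower. The EA1 count of genes higher and the EA2 count of genes lower were near these shares. The median log2 fold change was 0.02, 0.19 and 0.33 beside 0.03, 0.00 and 0.04 over all genes. Wwc2, of the KIBRA family that activates LATS, rose in all lines. In EA2 Wwc2 was 154, 139, 121 and 144 CPM with DMSO and 272, 329.6, 504 and 401 with alectinib (2.64-fold), and it was 1.54-fold higher in EA1 and 2.49-fold in EA3. Fat4, an atypical cadherin upstream of the pathway, rose 11.0-fold, 8.94-fold and 3.46-fold in EA1, EA2 and EA3, from mean DMSO levels of 1.76, 13.8 and 7.35 CPM. Scrib, a polarity scaffold, was the one listed gene lower in all 3 lines, at 0.618, 0.672 and 0.717 of its DMSO level, with no overlap in any line. The other genes called lower were Lats1 in EA1 and Sav1, Wtip and Dlg5 in EA2, named here after their values were seen. Vgll3, a TEAD cofactor, also passed in all lines, from a total of 1 DMSO count in EA1, 0 in EA2 and 110 in EA3 to 308, 19 and 1513 with alectinib. In EA2 this was at least 7.46-fold higher, against a floor of 3 counts over the DMSO libraries, but 2 of the 4 alectinib libraries were at 0.

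Another list held 22 further YAP and TAZ target genes, all tested, of which Ptpn14 and Amotl1 also stood among the Hippo regulators. EA1 had 8 called higher and 1 lower, EA2 had 10 and 0, and EA3 had 11 and 3, beside the shares of all genes just given. The 3 lower in EA3 were near the share of all genes, 15.8%. The list had a median log2 fold change of 0.28, 0.18 and 0.45. Ccn1, a secreted matrix protein also called Cyr61, was 2.96-fold, 7.26-fold and 6.04-fold higher in EA1, EA2 and EA3. In EA2 it was 131, 144, 101 and 81.6 CPM with DMSO and 454, 935, 1190 and 842 with alectinib. Its close relative Ccn2, or Ctgf, was 3.19-fold, 3.44-fold and 2.95-fold higher, and in EA2 its groups overlapped (edgeR adjusted p = 0.0497). Crim1, a transmembrane protein that binds growth factors, was 1.83-fold, 4.66-fold and 3.52-fold higher, and Arhgef17, a guanine nucleotide exchange factor, 1.69-fold, 1.50-fold and 2.40-fold. Tgfb2, a TGF-beta ligand, rose 32.0-fold, 18.2-fold and 37.7-fold, from mean DMSO levels of 0.424, 2.18 and 2.42 CPM. Ccdc80 rose in all lines from 12, 12 and 5 DMSO counts in all to 457, 302 and 188, and Rbms3, an RNA binding protein, from 69 to 528 counts in EA1 and 26 to 275 in EA3. In EA2 Rbms3 passed the test on 0 DMSO and 6 alectinib counts. Igfbp3 was called lower in EA1 and EA3, and Nt5e in EA3, both named after their values were seen.

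**Figure D5:**
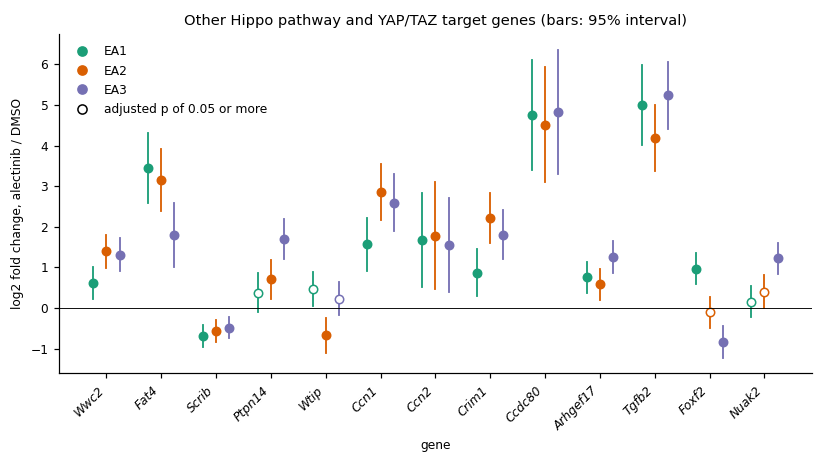
Log2 fold change of alectinib against DMSO (y axis) of other Hippo pathway and YAP/TAZ target genes chosen by rule (x axis) in EA1, EA2 and EA3, with the 95% interval as a bar; filled points have an edgeR adjusted p under 0.05. Vgll3 and Rbms3 are left out because a DMSO group held 3 counts or fewer. Scrib lies below 0 in all lines and Foxf2 lies at 0.96 in EA1, -0.11 in EA2 and -0.83 in EA3.

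Between the lines the effect differed for 3 of the 30 Hippo regulators tested and 3 of the 22 target genes, with Ptpn14 in both lists, beside 7.05% of all genes, and these genes are named because they passed that test. Foxf2, a forkhead factor, rose in EA1 from a range of 62.8 to 88.2 CPM with DMSO to 139 to 164 with alectinib, and fell in EA3 from 25.4 to 60.9 to 18.4 to 23.4, with no overlap in either line (edgeR adjusted p of the difference = 0.0031). Nuak2, a kinase of the AMPK family, rose 2.34-fold in EA3 and did not pass in EA1 or EA2 (1.11-fold and 1.32-fold; adjusted p of the difference = 0.0392 in edgeR). Ptpn14, a phosphatase that restrains YAP, rose 3.27-fold in EA3 and 1.64-fold in EA2, and was 1.30-fold higher in EA1 without passing (difference: edgeR adjusted p = 0.0421). Wtip, a LIM protein of the Ajuba family, was called only in EA2, where it was lower, at 0.627 of its DMSO level (difference: edgeR adjusted p = 0.0457). Vgll3 differed as well (edgeR adjusted p = 0.0385), on the low counts given above.

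Target genes of SRF and its cofactor MRTF, which control the actin cytoskeleton and share some targets with YAP, were also read. Of 10 listed, 8 of the 9 tested were called higher in each line, beside 18.0%, 13.0% and 16.5% of all genes in EA1, EA2 and EA3, the exception being Srf itself. Tagln was not tested, at 8, 5 and 1 DMSO counts in all and 11, 6 and 9 with alectinib in EA1, EA2 and EA3. In EA3, Acta2, Cnn1, Myl9 and Actg2 were called on 1, 1, 1 and 0 DMSO counts in all, against 516, 124, 547 and 12. The summed level of the 10 was 3363 to 5102 CPM with DMSO and 6813 to 11162 with alectinib in EA1. It was 2621 to 4121 and 5391 to 11061 in EA2, and 1466 to 3256 and 3818 to 7011 in EA3, with no overlap in any line. Of 10 proliferation genes 4, 3 and 4 were called lower in EA1, EA2 and EA3, beside 15.8%, 11.3% and 15.8% of all genes, and none higher. The sums of the 10 were 1111 to 4133 CPM with DMSO and 1019 to 1576 with alectinib in EA1, 1978 to 3325 and 557 to 2240 in EA2, and 945 to 3747 and 568 to 1198 in EA3.

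Markers of other cell types were checked against the label of lung cancer epithelium. Of the 6 epithelial markers, the keratin Krt18 averaged 1887, 1602 and 1672 CPM with DMSO in EA1, EA2 and EA3, but Epcam averaged 1.38 in EA1 and 0.489 in EA2 against 135 in EA3, and it was at 0 in every EA2 alectinib library. Cldn7 was near 0 in EA1 and EA2 as well. The epithelial sum was 4751 to 9116 CPM with DMSO and 3177 to 5350 with alectinib in EA1, 1821 to 2687 and 561 to 1176 in EA2, and 4759 to 6858 and 2948 to 6755 in EA3, with 1 marker called higher in each line and 1, 2 and 1 called lower. Of all genes, 18.0%, 13.0% and 16.5% were called higher and 15.8%, 11.3% and 15.8% lower. In EA1 and EA3 both counts were near these shares, as was the EA2 count of markers higher. Krt18 was called lower in all 3 lines, at 0.341, 0.288 and 0.449 of its DMSO level, with no overlap in any line. In EA2 Krt8 was called lower as well. The marker called higher was Epcam in EA1 and Cdh1 in EA2 and EA3. These calls are named after their values were seen. The 8 fibroblast markers summed to 9.55 to 45.3 CPM with DMSO and 125 to 473 with alectinib in EA1, 57.0 to 71.3 and 119 to 241 in EA2, and 10.3 to 20.5 and 84.9 to 284 in EA3. Of the 6 tested, 5, 3 and 5 were called higher, beside 18.0%, 13.0% and 16.5% of all genes, and none lower, and Lum and Postn were at 0 in every EA2 library. These sums, like the 4 target genes, were higher with alectinib in all 3 lines, and their part in the result was not tested. In bulk RNA, more or fewer cells of a type and more or less RNA per cell cannot be told apart. The 5 immune markers summed to at most 93.4 CPM, in EA3 with DMSO on day 5, where Cd68 alone stood at 92.7. The 4 endothelial markers summed to at most 9.50 CPM. Only 1 immune marker, Cd68, and 3 endothelial markers passed the filter on low counts and were tested. Of these only Pecam1 was called, lower in EA2, beside 11.3% of all genes called lower there. That call rested on 90 DMSO and 14 alectinib counts in all.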

How the data were processed

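RNA was isolated from each culture and poly(A) mRNA libraries were made with a stranded kit. The deposited values are raw counts per gene, not normalized, which the authors obtained with STAR, used both as aligner (mm10) and as counter. Read quality control (FastQC) and adapter removal (bbduk) came before alignment. The strand setting of the counter and the gene annotation are not given in the sources used here. All 55391 genes matched GENCODE M21 by symbol. Another 24 entries whose symbols had turned into date numbers, 0.129% to 0.201% of counts, were left out, and 0 columns stayed unmapped.

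Library totals were 5780062 to 11732401 counts. They were scaled by TMM and filtered with filterByExpr by line and treatment (edgeR 4.0.16, R 4.3.3). The effect of alectinib was fitted by edgeR's robust quasi-likelihood model over 24 libraries, with the 12 pairs of line and day as blocks and 1 effect per line. DMSO levels of the lines were fitted over the 12 DMSO libraries. Slopes used log2 day. Adjusted p-values are Benjamini-Hochberg over all genes tested. Log2 ratios by day used a prior count of 2. The pairing comes from the shared day of culture in the labels. Same-day deviations of the DMSO and alectinib libraries correlated at r of -0.3 to 0.549. The scripts were tested on simulated counts.

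The members and the gene lists were chosen with earlier results of these data known. From the 2 pathway lists, genes were named that passed in 1 direction in all 3 lines (at most 5 a list, by median absolute log2 fold change, with Ccn2 and Arhgef17 added after the values were seen), that differed between lines (at most 3 a list) or that passed with opposite signs. The 3 genes most like each target were named by Pearson's r. Alternatives were DESeq2 1.42.0, its size factors, library size alone, no filter or at least 10 counts in every library, other blocks, each line alone, leaving out each day, adding the 2 libraries labelled EA3 day 7, and leaving out 2 sets of libraries chosen after seeing the data. Those of day 7 were otherwise left out, because they correlated with EA2 (r 0.943 to 0.988) more than with EA3 (r 0.852 to 0.890). The other 24 each correlated best with a library of their own group.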

Additional observations from a re-analysis of the deposited data

Results flagged for a closer look

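Among the 60 groups of 4 days that the 10 genes form, 5 held a day that stood apart from the other 3 by Dixon's test, where chance alone gives about 3. They were Tead2 in EA3 with DMSO on day 2 (239.8 CPM, high), Tead3 in EA1 with alectinib on day 1 (44.4 CPM, high), and Tead3, Ankrd1 and Amotl2 in EA3 with alectinib on day 5 (49.2, 285 and 275 CPM, all low). The last 3 values come from 1 library.

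For 5 pathway genes, named because they passed, the alectinib effect differed between the lines (edgeR, all 3 lines at once). They were 3 of 30 Hippo regulators and 3 of 22 target genes tested, with Ptpn14 in both lists, beside 7.05% of all genes. Vgll3 rested on 1, 0 and 110 DMSO counts in all in EA1, EA2 and EA3. The adjusted p was 0.0031 for Foxf2, 0.0385 for Vgll3, 0.0392 for Nuak2, 0.0421 for Ptpn14 and 0.0457 for Wtip.

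In the 2 libraries labelled EA3 day 7, which entered none of the main comparisons, the log2 ratio of alectinib to DMSO was 1.34 for Ankrd1, 2.75 for Amotl2, 1.29 for Ajuba and 1.07 for Lats2. With 1 library for each treatment these ratios have no replicate check.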

How the results depend on the processing

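The number of the 10 genes called was 6, 5 and 6 in EA1, EA2 and EA3, and leaving out 1 day moved it to 3 to 5, 3 to 5 and 5 to 7. With library size alone it was 8, 4 and 9, and in EA3 it was 4 without days 2 and 5. Without the replicate block it was again 6, 5 and 6, and with each line fitted alone 5, 6 and 6. For the difference between lines the count of 0 became 1, Amotl2, with DESeq2, with no filter on low counts, with no replicate block and without day 1, and stayed 0 without days 2, 3 or 5. The DMSO count of EA2 against EA1, 2, was 1 with no filter, 4 with day as a replicate block and 0 to 1 with a day left out. That of EA3 against EA1, 3, was 5 with the block and 1 to 3 with a day left out, and that of EA3 against EA2, 2, was 3 with the block, with DESeq2, with library size alone and with no filter, and 1 to 2 with a day left out. The cause of these moves was not tested, apart from there being fewer libraries where a day was left out.

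The sign turned for genes near 0 that were not called. In EA1, Wwtr1 was -0.022 and Tead1 -0.0032 with no replicate block, Tead1 was -0.012 with no filter, and leaving out a day gave Wwtr1 -0.12 to 0.2 and Tead1 -0.12 to 0.093. Leaving out a day gave Tead2 -0.22 to 0.0081 in EA2 and -0.15 to 0.094 in EA3. In EA3, Tead2 was also 0.1 with library size alone, 0.0033 with at least 10 counts in every library and 0.22 without days 2 and 5. Library size alone moved the median of all genes by 0.13 in EA1 and 0.15 in EA3 and the share of calls that were higher from 53.2% to 64.6% and from 51.0% to 64.8%. Under it all 4 target genes stayed called higher in each line and Tead4 lower in EA1 and EA3. The lowest count of any member in any library was 75.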

Other observations

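In the libraries labelled EA3 day 7, Amotl2 stood at 122 CPM with DMSO and 818 with alectinib. Ankrd1 stood at 199 and 503 CPM, Ajuba at 65.3 and 159.9, and Lats2 at 19.3 and 40.5. The log2 ratio of alectinib to DMSO was 0.28 for Yap1, -0.58 for Wwtr1, -0.21 for Tead1, -0.30 for Tead2, -0.53 for Tead3 and -0.83 for Tead4. Tead3 stood at 25.8 CPM with DMSO, where the 4 EA3 DMSO libraries of days 1 to 5 ranged from 35.4 to 55.5 and those of EA2 from 15.3 to 22.1.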
